A study of Saccharomyces cerevisiae with 3 samples.

Results

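The 10 genes described here encode the enzymes with which Saccharomyces cerevisiae makes and breaks down its reserve carbohydrates, trehalose and glycogen. They were chosen by name, as the 10 open reading frames (ORFs) TPS1 (YBR126C), TPS2 (YDR074W), TPS3 (YMR261C), TSL1 (YML100W), NTH1 (YDR001C), GSY1 (YFR015C), GSY2 (YLR258W), GLC3 (YEL011W), GPH1 (YPR160W) and GDB1 (YPR184W), out of 6207 ORF rows of the deposited table. Of these, 7 serve synthesis and 3 serve breakdown. Of the 10, 6 (60%) had a value on any of the 3 arrays analysed here, close to the 62.4% of all ORFs. Among those, GSY2 had the largest values, slightly over 2-fold on each of the 2 arrays that measured it.

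The study set yeast treated with caspofungin at 15 ng/ml for 2 h beside untreated yeast, both split from the same culture in YEPD medium at 24 °C. Caspofungin is an echinocandin, a drug that blocks the enzyme making β-1,3-glucan in the fungal cell wall. All samples, treated and untreated, carried the genotype MID2extWSC1cyt in the BY4741 background, a laboratory haploid of mating type a. By its name, the genotype fuses the outer part of the wall sensor Mid2 to the inner part of the sensor Wsc1. Whether the fusion sits in the genome or on a plasmid, and whether the strain is a single clone, the labels do not say.

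Each array held the RNA of treated and untreated cells, labelled with different dyes, and gave a log2 ratio for each ORF. The arrays are numbered 1, 2 and 4 in their labels. Treated RNA was in Cy3 on array 1 and in Cy5 on arrays 2 and 4. The design text speaks of 2 cultures with 2 hybridizations each, so array 1 shares a culture with array 2 or array 4, and which of them is not given. The arrays measured 3748, 2833 and 855 ORFs, or 60.4%, 45.6% and 13.8%, and their median log2 values were −0.24, −0.14 and −0.93. The scale's direction is not stated. Array 1 correlated positively across ORFs with array 2 (Pearson's r 0.436, 2818 ORFs) and array 4 (0.394, 745 ORFs), so it was taken as already turned to their direction, although a dye effect particular to each gene would give such a correlation too. A positive value reads as higher with caspofungin if the ratio is treated over untreated, and every sign below turns if it is the reverse.

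As a check of the labelled strain, 3 of 4 genes specific to mating type a had values on array 1 and 0 of 4 genes specific to mating type alpha did. Of all ORFs 60.4% had a value there, so these small counts say little on the strain. Of 6 meiosis and sporulation genes 1 had values, SMK1, while 62.4% of all ORFs had a value on any array. URA3 and MET17, which BY4741 lacks, had none. LEU2 and HIS3, which are deleted or partly deleted in BY4741, had −0.75 and −1.20 on array 1 and 0.16 and −0.07 on array 2. What gave these values was not tested.

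Trehalose and glycogen are both built from UDP-glucose, the same sugar donor that glucan synthase uses for the wall. For trehalose, Tps1 joins UDP-glucose to a glucose phosphate, Tps2 removes the phosphate, Tps3 and Tsl1 are regulatory subunits of the same complex, and the neutral trehalase Nth1 splits the product. For glycogen, the synthases Gsy1 and Gsy2 lengthen the chains and Glc3 adds branches, while the phosphorylase Gph1 and the debranching enzyme Gdb1 take the polymer apart. Yeast is known for accumulating both stores when growth slows and under several stresses.

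Trehalose synthesis was measured through TPS1 and TPS2. TPS1, the synthase, had log2 values of 0.37 on array 1, −0.21 on array 2 and −0.38 on array 4. It was thus positive on the array with treated RNA in Cy3 and negative on both arrays with treated RNA in Cy5. Relative to each array's median these values were 0.61, −0.08 and 0.56, so that the value on array 4, where values lie low as a whole, was above that median. TPS1 was the only one of the 10 genes measured on all 3 arrays. A limma fit with a dye term over the 723 ORFs on all arrays gave it 0.04 ± 0.73 (SE, 3 arrays; limma adjusted p = 0.996), with a 95% interval from −1.39 to 1.46. That interval leaves room for changes of over 2-fold either way. Its SE was common to all ORFs of the fit and is not the spread of TPS1 itself. In the same fit 2 ORFs, or 0.277%, passed an adjusted p of 0.05, and TPS1 was not among them.

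TPS2, the phosphatase of the trehalose complex, had a value on array 1 alone, 0.65, a ratio of 1.57. It stood at the 88.7th percentile of that array, above TPS1 at the 80.1st percentile. With a single array it has no replicate check. TPS3 and TSL1, the regulatory subunits, had no value on arrays 1, 2 and 4.

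NTH1, the neutral trehalase and the only breakdown enzyme of the 10 with any value, had −0.70 on array 1 and 0.49 on array 2. The arrays placed it on opposite sides of 0, at the 24.4th percentile of array 1 and the 92.9th percentile of array 2. The fit over arrays 1 and 2, in which 2818 ORFs were tested, gave a mean of −0.11 ± 0.33 (SE, 2 arrays; limma adjusted p = 0.870). The difference between its arrays was larger than this mean. Its paralogue NTH2 had 0.28 and 0.35 on arrays 1 and 2, positive on each, and a mean of 0.31 (limma adjusted p = 0.561). The acid trehalase ATH1 had no value on the 3 arrays.

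**Figure D1:**
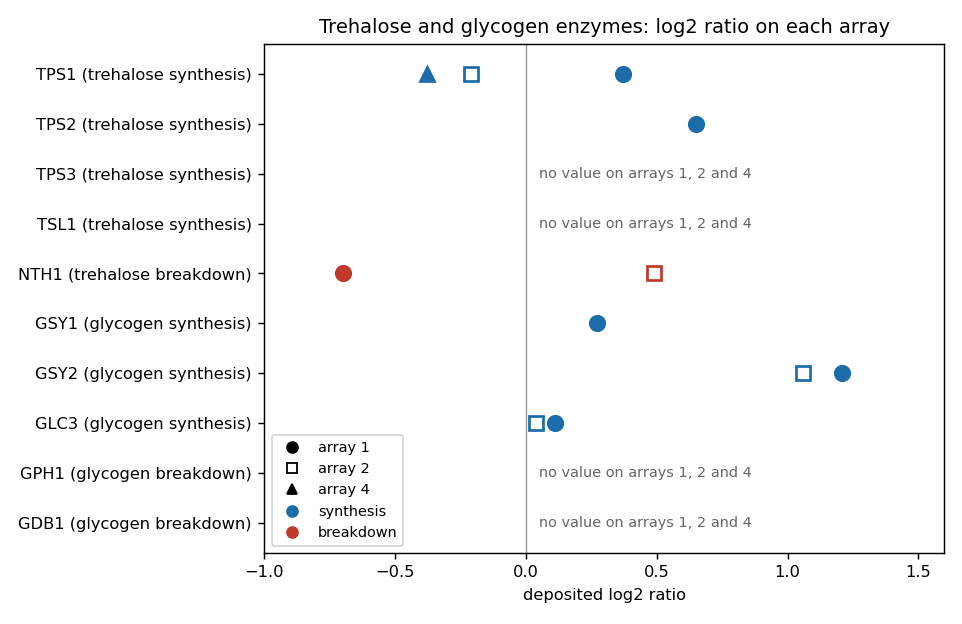
Deposited log2 ratio (x axis) of each of the 10 enzymes (rows) on array 1 (filled circles), array 2 (open squares) and array 4 (triangle), with synthesis in blue and breakdown in red. GSY2 lies at 1.21 and 1.06, NTH1 lies on both sides of 0, and TPS3, TSL1, GPH1 and GDB1 have no value.

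Glycogen synthesis held the largest values. GSY2, the main glycogen synthase of yeast, had 1.21 on array 1 and 1.06 on array 2, ratios of 2.31 and 2.09. The arrays, of opposite dye orientation, lay close together on the positive side, and array 4 had no value for it. GSY2 ranked 136th of 3748 ORFs on array 1 and 51st of 2833 on array 2, counted from the most positive. Above each array's median it stood at 1.45 and 1.20.

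The mean of GSY2 over arrays 1 and 2 was 1.14 ± 0.26 (SE, 2 arrays; limma adjusted p = 0.0903), with a 95% interval from 0.54 to 1.73. It did not pass the adjusted threshold of 0.05, which 25 of the 2818 ORFs (0.887%) did, all of them positive. The call changed with the scaling. With each array centred on its median, which put the median of the ORFs tested at 0.00 in place of −0.18, GSY2 had 1.32 (limma adjusted p = 0.00249) and passed. It also passed with the arrays centred and brought to equal spread (1.96, limma adjusted p = 0.000990) and after quantile normalization (1.14, limma adjusted p = 0.00516). The spread that limma shares between ORFs changed as well. Its prior degrees of freedom were 7.81 as deposited, infinite after centring, 27.5 with equal spread and 41.7 after quantile normalization. After quantile normalization GSY2 thus passed with an unchanged mean and an SE of 0.27, beside 0.26. With the trend on ORF length removed GSY2 had 1.10 (limma adjusted p = 0.0768). Turning the sign of array 1 gave −0.07 (limma adjusted p = 1). The error of this mean covers only hybridization and dye if arrays 1 and 2 share a culture.

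GSY2 was the only one of the 4 enzymes on both arrays whose mean reached 1.5-fold with 1 sign on both, 1 positive and 0 negative. Over all 2818 ORFs, 7.91% met this limit on the positive side and 9.08% on the negative side. A value of at least 2-fold on array 1 and again on array 2, as GSY2 had, was found for 54 ORFs (1.92%) on the positive side. The ORFs nearest to GSY2 by Euclidean distance over these 2 arrays, among 2817, were FET5, for a multicopper oxidase (distance 0.019, with 1.22 and 1.08), TKL1, for transketolase (0.049, with 1.16 and 1.09) and GPT2, for an acyltransferase of lipid synthesis (0.092, with 1.14 and 1.13). A likeness over 2 arrays describes only these values.

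GSY1, the other glycogen synthase, had 0.27 on array 1 and no other value, a ratio of 1.20, against the ratio of 2.31 that GSY2 had there. GSY1 and GSY2 are similar in sequence, and how far their spots share transcripts was not tested. GLC3, the branching enzyme, had 0.11 and 0.04 on arrays 1 and 2, positive on each but close to 0. Its mean was 0.08 ± 0.26 (SE, 2 arrays; limma adjusted p = 0.882), with a 95% interval from −0.51 to 0.67. The interval of GLC3 overlaps that of GSY2, and their difference was not tested. Of glycogen breakdown nothing can be said from these arrays, since GPH1 and GDB1 had no value on any of the 3.

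**Figure D2:**
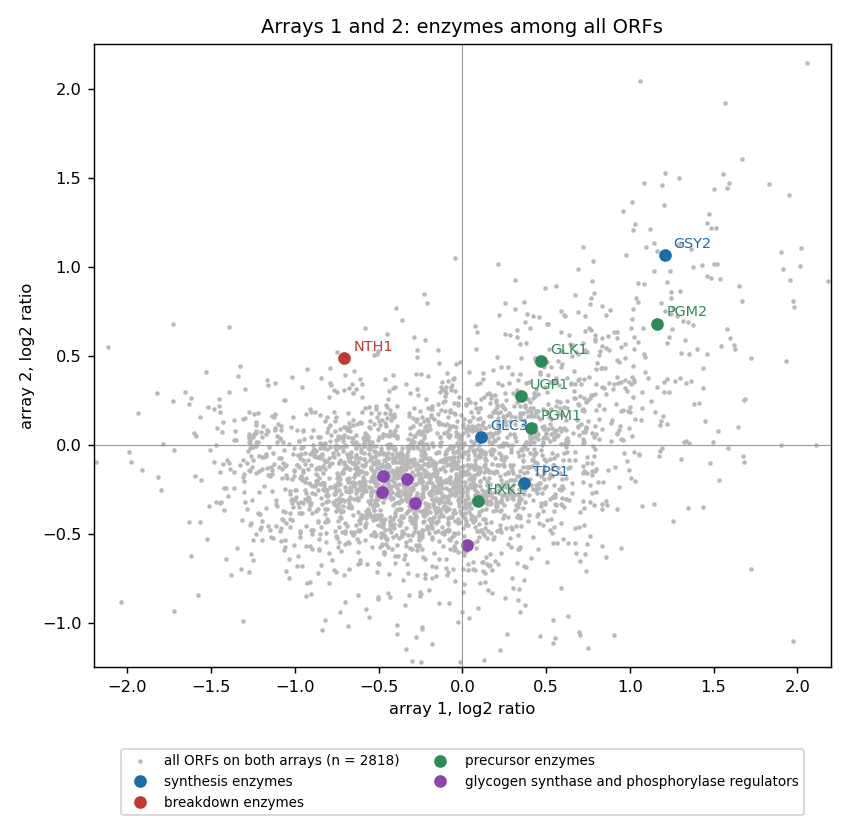
Log2 ratio on array 1 (x axis) against array 2 (y axis) for the 2818 ORFs on both (grey), with synthesis enzymes in blue, NTH1 in red, enzymes that supply precursors in green and regulators of glycogen synthase and phosphorylase in purple. GSY2 and PGM2 lie at the upper right, NTH1 at the upper left, and 31 ORFs lie outside the axes.

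Set side by side, synthesis and breakdown did not keep an order between the arrays. On array 1 the median of the 5 measured synthesis genes was 0.37 and NTH1 had −0.70, a difference of 1.07. On array 2 the median of 3 synthesis genes was 0.04 and NTH1 had 0.49, a difference of −0.44. The 3 synthesis genes with values on both arrays, TPS1, GSY2 and GLC3, gave the same medians of 0.37 and 0.04. For trehalose alone the difference was 1.22 on array 1 and −0.70 on array 2. For the means over arrays 1 and 2 the synthesis median was 0.08 against −0.11 for NTH1, a difference of 0.19. The comparison rests on a single breakdown gene, carries no test, and cannot be made for glycogen or on array 4.

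Among the enzymes that supply precursors, PGM2 had the largest mean over arrays 1 and 2, and no value on array 4. PGM2 encodes the major phosphoglucomutase, which makes the glucose phosphate that is turned into UDP-glucose, and had 1.16 on array 1 and 0.68 on array 2. Both values were positive, at the 96.0th and 95.8th percentiles of their arrays. Its mean was 0.92 ± 0.27 (SE, 2 arrays; limma adjusted p = 0.218), and like GSY2 it passed after centring (1.11, limma adjusted p = 0.0190), with equal spread (1.52, limma adjusted p = 0.00831) and after quantile normalization (limma adjusted p = 0.0298). It did not pass with the length trend removed (0.85, limma adjusted p = 0.194) or with robust moderation (limma adjusted p = 0.219). In the settings where it passed the prior degrees of freedom were higher, as for GSY2. With the sign of array 1 turned PGM2 had −0.24. The minor isoform PGM1 had 0.41 and 0.10, positive on each array, with a mean of 0.25 (limma adjusted p = 0.616).

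UGP1, the enzyme that makes UDP-glucose itself, had 0.35, 0.28 and −0.73 on arrays 1, 2 and 4. The last was negative as deposited but lay 0.20 above the median of array 4. The kinases that phosphorylate glucose lie on the way into these stores and into glycolysis alike. Of them GLK1 had 0.47, 0.47 and 0.86, positive on each array, HXK2 had 0.85 on array 1 and 0.46 on array 4, and HXK1 had 0.09 and −0.32 on arrays 1 and 2. None of UGP1, GLK1 and HXK1 passed in the fit of arrays 1 and 2 (limma adjusted p = 0.560, 0.421 and 0.831). The 5 precursor enzymes in that fit, 4 positive and 1 negative (20% negative, beside 66.8% of all ORFs), had a median of 0.31, beside −0.18 for all ORFs tested. With the length trend removed PGM1, PGM2, UGP1 and GLK1 had 0.18, 0.85, 0.28 and 0.43, beside a median of 0.04, and none of them passed. These are the 4 with a positive mean. HXK1 is not reported in this setting, so the values do not describe all 5.

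Among the glycogen primers, GLG1, a glycogenin that starts new glycogen chains, had −0.61 and −0.42 on arrays 1 and 2, and its mean of −0.52 did not pass (limma adjusted p = 0.408). GLG2, the other glycogenin, had −0.86 on array 1 only. Genes that act on glycogen synthase and phosphorylase were measured in 5 cases on arrays 1 and 2, 0 with a positive mean and 5 with a negative one, as 66.8% of all ORFs had, from −0.37 to −0.26 with a median of −0.30. The median of all ORFs was −0.18, so these values lie close to the bulk, and 0 of the 5 passed in limma, nor did any have an unadjusted p under 0.05. They were GLC7, a catalytic subunit of protein phosphatase 1, its activator GLC8, and the cyclins PCL7, PCL8 and PCL10 of the kinase Pho85, which phosphorylates and so restrains glycogen synthase.

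PIG1, a regulatory partner of Glc7, had −1.27 on array 1 and −4.06 on array 4, low on both, and GLC7 had −0.48, −0.18 and −2.05 on arrays 1, 2 and 4. On array 4 they stood at the 3.51st and 23.2nd percentiles, while PCL8, with 0.21, stood at the 84.1st. PIG2, GAC1, GIP2, PCL6, PHO85 and IGD1 of the same list had no value.

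Of the regulators of trehalase, DCS1, known also as an inhibitor of neutral trehalase, had a mean of −0.07 over arrays 1 and 2, and the 14-3-3 proteins BMH1 and BMH2, which bind and activate Nth1, had −0.05 and −0.07. On array 4 BMH1 and BMH2 had 1.10 and 0.32, at the 93.9th and 85.6th percentiles. DCS2 had −0.67 on array 1 only. The protein kinase A subunits TPK2 and TPK3 had means of −0.29 and −0.17, and SNF1, the kinase of glucose derepression, had 0.20, from 0.60 on array 1 and −0.19 on array 2. MSN2, MSN4 and RIM15, regulators of the stress response, and the sporulation glucoamylase SGA1 had no value. In all, 22 of the 33 other pathway genes had a value and 18 were in the fit of arrays 1 and 2, of which 6 had a positive and 12 a negative mean and 0 passed in limma (1 at an unadjusted p under 0.05, PGM2). The share with a negative mean was 66.7%, beside 66.8% of all 2818 ORFs, of which 13.5% had an unadjusted p under 0.05. The median of the 18 was −0.09.

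**Figure D3:**
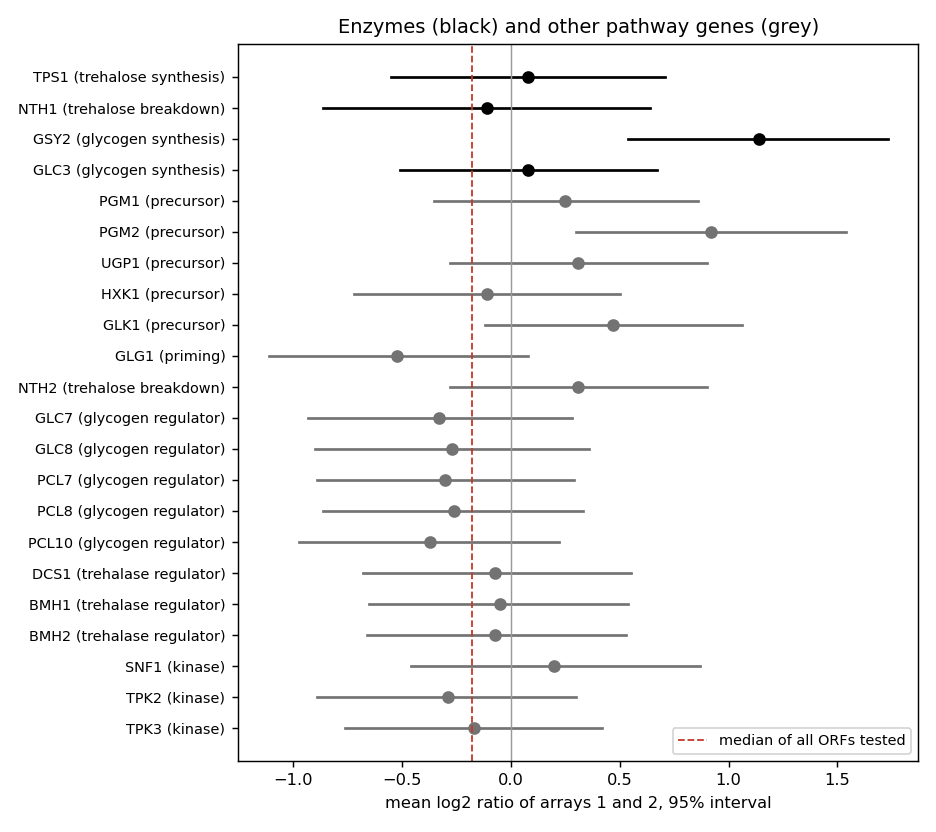
Mean log2 ratio of arrays 1 and 2 with its 95% interval from limma (x axis) for the 4 enzymes (black) and 18 other pathway genes (grey) measured on both arrays; the dashed line is the median of the 2818 ORFs, −0.18. The intervals of GSY2 and PGM2 lie above 0 and those of the other genes include it.

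General stress genes, many of which share the stress factors Msn2 and Msn4 with trehalose and glycogen enzymes, were mixed. Of the 7 with values on arrays 1 and 2, 2 had a positive and 5 a negative mean (71.4% negative, beside 66.8% of all ORFs), with a median of −0.38, beside −0.18, and 0 passed in limma (1 at an unadjusted p under 0.05, TFS1). TFS1, a carboxypeptidase inhibitor, had −1.02, −0.33 and −0.86 on arrays 1, 2 and 4, negative on each as deposited. Its value on array 4 lay 0.08 above the median of that array. The small heat shock proteins HSP26 and HSP42 had means of −0.59 and −0.48, and HSP12 had −0.38. HSP12, HSP26 and TFS1 are short, at 330, 645 and 660 bp. All ORFs under 500 bp had a median of −0.91 on array 1 and −0.20 on array 2. Those of 500 to 1000 bp had −0.45 and −0.25. With the length trend removed HSP12 had 0.26 (limma adjusted p = 0.836), beside a median of 0.04. The other stress genes are not reported in that setting. HSP104, a disaggregase, had 0.79 and −0.02, a mean of 0.39. GAD1, a glutamate decarboxylase, had 1.30 on array 1 and no other value. The difference between these genes and the enzymes was not tested.

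The enzymes with and without a value differed in length. The 6 measured enzymes were 1488 to 2691 bp long and the 4 without a value 2709 to 4611 bp, with no overlap. Among all 5711 ORFs with a length in the gene table, 324 of the 648 that were at least 2709 bp long (50%) had a value on some array, against 3394 of the 5063 shorter ones (67%). This limit was chosen after the values were seen. On 2 of the arrays values moved with length as well: Spearman's rho across ORFs reached 0.347 for array 1 and 0.392 for array 2, with 0.0474 for array 4, over ORFs that share an array and so are not independent. Between 2000 and 2500 bp, the class of GSY1, GSY2, GLC3 and NTH1, the median of all ORFs was 0.23 on array 1 and 0.18 on array 2, against which GSY2 had 1.21 and 1.06 and GLC3 had 0.11 and 0.04. The part of length in the missing values was not tested further.

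**Figure D4:**
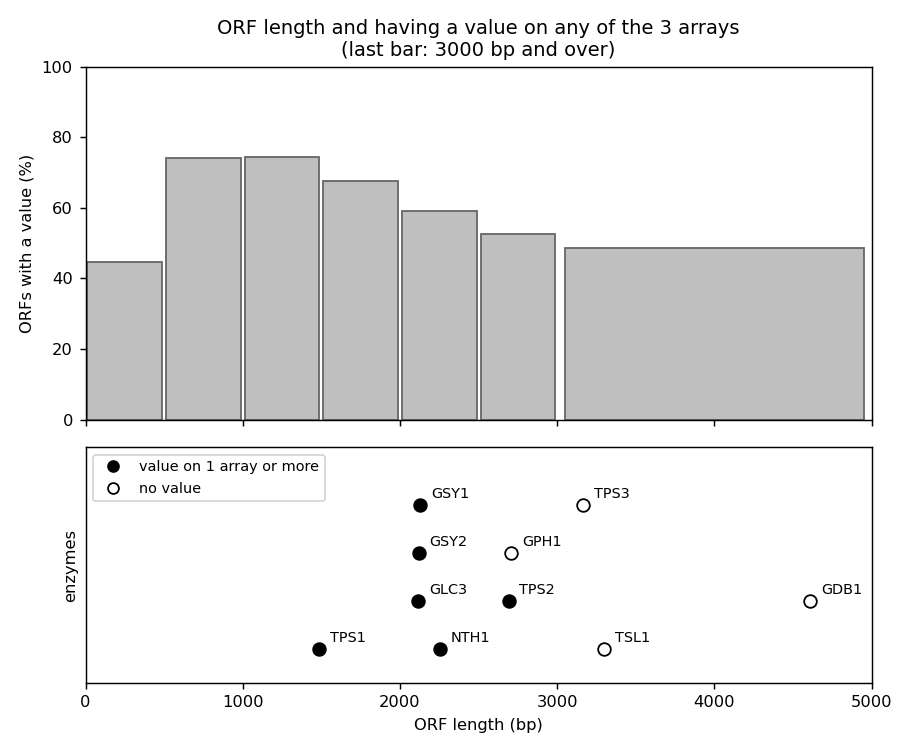
Top, percent of ORFs in each length class (bp) with a value on at least 1 of the 3 arrays, highest at 1000 to 1500 bp (74.5%) and lower at 3000 bp and over (48.7%) and under 500 bp (44.5%). Bottom, lengths of the 10 enzymes, filled where a value exists and open where none does; heights only separate the labels.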

How the data were processed

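The deposited table holds 1 log2 ratio per ORF and array. Two-colour arrays with exchanged dyes were used, per the labels' protocols. No label or header states the scanner, the background correction, the normalization, the centring, the direction or why cells are empty. The log base follows from the values, since 100% of them on each array, raised from base 2, fell on steps of 0.0001 to within 0.01 of a step.

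The deposited log2 values were used as they stand. Limma 3.58.1 in R 4.3.3 was fitted to the 723 ORFs on all arrays, with a dye term, and to the 2818 ORFs on arrays 1 and 2, without one, with Benjamini-Hochberg adjustment over all ORFs of a fit and a threshold of 0.05. In the fit of 3 arrays each ORF took the prior SD of 1.19. In that of arrays 1 and 2 the prior SD was 0.391, with 7.81 prior degrees of freedom. P-values and intervals of the fit of 3 arrays therefore rest on a spread common to all its ORFs. That spread comes from arrays 2 and 4, since array 1 alone has its dye orientation. In the fit of arrays 1 and 2 they rest on the spread between these arrays, moderated by the prior. The spread between arrays 1 and 2 may be technical alone, if they share a culture. Since array 1 shares a culture with array 2 or array 4 by the design text, arrays 2 and 4 come from different cultures. Their spread thus holds differences between cultures as well as technical ones. The number of arrays limits the precision. Both fits were also run on simulated data with the same noise on each array. The real arrays differed in spread (SD 0.809, 0.436 and 1.55), so that run does not show how the fits perform here.

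Names and lengths come from the RefSeq gene table of the S288C reference assembly (5654 ORFs matched by locus tag, 57 by synonym, 496 not), which gives no build for the array. The genes named are the 10 enzymes, a fixed list of pathway genes, of which 33 are reported here, and general stress genes. Of the stress genes, the 5 with the largest means in size over arrays 1 and 2 are named. GAD1, with a value on array 1 alone, is named beside them. Also named are the 3 ORFs nearest to the enzyme with the largest mean over arrays 1 and 2. Enzymes and lists were chosen with earlier results of these data known. Alternatives were centring, equal spread, quantile normalization, turning array 1, dropping the dye term, averaging arrays of a culture, a relaxed filter, robust moderation, other thresholds and leaving out each array. Sequences were not used here.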

Additional observations from a re-analysis of the deposited data

How the results depend on the processing

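Each within-array ratio already pairs treated with untreated yeast split from the same culture. The arrays form a single group of such ratios, so no further paired analysis was run. Removal of the length trend was chosen after the data were seen. The cause of the changes below was not tested. TPS1, at 0.04 over 3 arrays, had 0.42 after centring, 0.31 with equal spread, 0.20 with the length trend removed, −0.33 with array 1 turned the other way, −0.11 after quantile normalization, −0.07 without the dye term, −0.15 with arrays 1 and 2 averaged and −0.11 with arrays 1 and 4 averaged, and −0.29 to 0.08 with an array left out. At 0.08 over arrays 1 and 2, it had 0.26 after centring, 0.20 with equal spread, −0.29 with array 1 turned and −0.01 after quantile normalization. NTH1, at −0.11, had 0.08 after centring, 0.45 with equal spread, 0.60 with array 1 turned and 0.08 after quantile normalization. With array 1 turned GSY2 had −0.07 and GLC3, at 0.08, had −0.03, with 0.27 after centring and 0.35 with equal spread. Of 8 alternatives for GSY2, 7 kept its sign. Those that drop array 1 or array 2 keep a single array and have no p-value. Of the others, 3 called it, with limma adjusted p from 0.000990 to 1. Synthesis minus breakdown, at 0.19, was −0.10 with equal spread, 0.01 after quantile normalization, −0.67 with array 1 turned, −0.44 without array 1 and 1.07 without array 2. Over 3 arrays it could not be computed, since no breakdown enzyme was on all 3.

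The number of ORFs called over 3 arrays, 2, was 12 with arrays 1 and 4 averaged (6 positive and 6 negative), 0 to 25 with an array left out and 23 by unadjusted p. It was 0 with centring, equal spread, array 1 turned, the length trend removed, quantile normalization, no dye term, arrays 1 and 2 averaged or a relaxed filter. Over arrays 1 and 2 the 25, all positive, became 380 by unadjusted p, 134 after centring (126 positive and 8 negative), 166 with equal spread (160 and 6), 146 after quantile normalization (111 and 35) and 1 with array 1 turned (0 and 1). The enzymes of at least 1.5-fold with one sign over 3 arrays, 0, were 1 with the relaxed filter and 0 to 1 with an array left out. Over arrays 1 and 2 the count of 1 was 1 to 2 with an array left out, and with array 1 turned the 1 was NTH1 in place of GSY2.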
